A study of Mus musculus with 5 samples.

Results

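The genes described here are 10 mouse genes of the MHC class II pathway, H2-Aa, H2-Ab1, H2-Eb1, H2-DMa, H2-DMb1, H2-DMb2, H2-Oa, H2-Ob, Cd74 and Ciita, out of 21631 protein-coding genes of the autosomes and chromosome X. They were taken by name. A site was assigned to a gene where its summit, the base at the top of a peak, lay inside the gene or within 50 kb of either end. By this rule 21 of the 11111 listed PU.1 sites belong to the 10 genes, 8 at Ciita on chromosome 16, 7 in the class II cluster on chromosome 17 and 6 at Cd74 on chromosome 18.

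The sites come from ChIP-seq (chromatin immunoprecipitation and sequencing) of the transcription factor PU.1 with antibody T-21. The cells were AML-246, a p53-/- C57BL/6 acute myeloid leukaemia with a GFP-linked hairpin (shPU.1) that holds endogenous PU.1 down, taken from the spleens of leukaemic recipients. One group was untreated (PU.1 Low, 2 libraries) and the other had received Dox, doxycycline, for 2 days, which shuts the hairpin off and restores endogenous PU.1 (PU.1 High, 3 libraries). Both groups carry the p53 loss and the hairpin construct, both stand for 1 leukaemia, and the libraries of a group are technical replicates. No sort is named, and no measure of the recipients' own spleen cells was used here. The deposited list sets high against low once for the whole series, so each site is read as one with more PU.1 binding after Dox than before. It has no value per library, so no spread between libraries and no test between the treatments can be given, and the read depth is unknown. The score of a summit is the authors' value on a −log10 scale, p or q not stated. It ranks how surely a site stood out and is no fold change.

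MHC class II molecules are pairs of an alpha and a beta chain that show peptides from taken-up proteins to CD4 T cells. Professional antigen-presenting cells (dendritic cells, B cells and activated macrophages) make them. CIITA, the product of Ciita, does not bind DNA itself. It docks on a complex of RFX, CREB and NF-Y proteins that sits on short elements, the X and Y boxes, upstream of the class II genes. Ciita is transcribed from alternative promoters that differ between myeloid cells, B cells and cells exposed to interferon-gamma. PU.1 is a factor that myeloid and B cells need, and its known DNA core is the ETS element.

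All 10 genes had at least 1 site inside or within 50 kb, against 50.3% of protein-coding genes. Within 10 kb it was 6 of the 10, against 27.8%, and with a site of score 10 or more inside or within 50 kb it was 5 of the 10, against 26.9%. A site lay inside the gene itself in 2 of the 10, Ciita and Cd74, a share near the 16.6% of protein-coding genes. The 10 genes are not independent in these counts. The 8 genes on chromosome 17 lie within 224 kb, their windows overlap, and 5 of the 7 summits there fall into the windows of several of them, up to 4 at a time.

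Ciita (chromosome 16, 10480014 to 10531064, mm10), the master regulator of the class II genes, had the most sites of the 10. Its 8 summits compare with a median of 1 per protein-coding gene, and 0.435% of protein-coding genes had at least as many. Its span of 51.1 kb is longer than the median of 17.3 kb, which widens its window. Per 100 kb of window it had 5.30 summits, against 0.711 over the windows of all protein-coding genes.

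Of the summits at Ciita, 3 lay inside the gene. The first, at 10488073, 8.06 kb above the lower end, scored 8.72. The next, at 10489329, was 1.26 kb further on and scored 6.61. The last of them, at 10499377 and 19.4 kb above the lower end, scored 3.77. These intragenic sites thus ran from near the median of all listed sites, 8.56, down to a score that 8.83% of sites fall below. The alternative first exons of Ciita were not located here, so these summits are placed only by their distance from the gene ends.

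The higher scores at Ciita lay outside the gene. The highest, 14.2, belonged to a summit at 10470747, 9.27 kb beyond the lower end and inside the noncoding gene Gm41420. A summit 43.6 kb beyond that end, at 10436439, scored 12.7 and lay inside the neighbouring gene Tvp23a. Between these came one with a low score of 4.23 at 10452747. On the other side, a pair of summits 1.35 kb apart scored 11.7 (at 10545236) and 10.1 (at 10546589). This pair lay 14.2 and 15.5 kb beyond the upper end of Ciita, at the near end of Clec16a, the first 0.073 kb outside that gene and the second inside it. By distance alone, 4 of the 8 summits had Ciita as their nearest protein-coding gene, and the other 4 had Tvp23a or Clec16a.

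**Figure D1:**
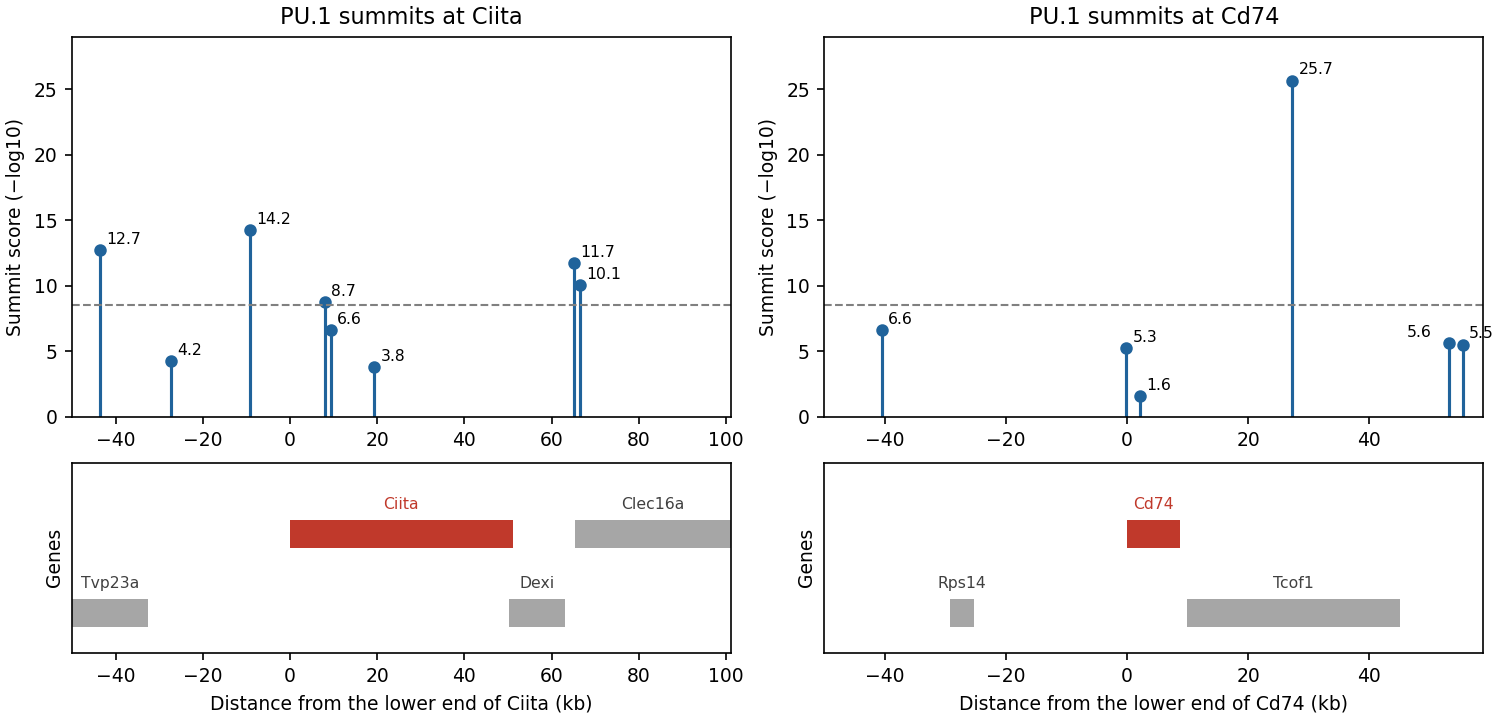
Summits at Ciita (left) and Cd74 (right) by distance from the lower end of the gene in kb (x axis) and −log10 score (y axis), with the protein-coding genes below (members red, others grey, clipped at 50 kb from the member) and the median score of all 11111 summits as a dashed line. The 4 summits of Ciita that score above 10 lie outside the gene, and the 25.7 summit at Cd74 stands above the other 5, which reach 6.59 at most.

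Cd74 (chromosome 18, 60803849 to 60812652) encodes the invariant chain, which guards the peptide groove of new class II molecules and steers them to the endosome. It had 6 summits, a number that 1.78% of protein-coding genes reached. A summit at 60803727 lay 122 bases beyond its lower end and scored 5.26. A summit inside the gene, at 60805893, scored 1.57, close to the lowest score of the list, 1.32. These nearest sites were therefore among the lower-scoring ones, with 19.03% and 0.549% of all sites below them.

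The highest-scoring site of all 10 windows also lay in the window of Cd74. It lay at 60831166, 18.5 kb beyond the upper end of Cd74, with a score of 25.7, and ranked 114 from the top of the 11111 sites. It stands inside the next gene, Tcof1, a nucleolar protein gene of ribosome production, which is nearer to it than Cd74. The other 3 summits scored 6.59 at 40.5 kb beyond the lower end, and 5.59 and 5.50 at 44.3 and 46.6 kb beyond the upper end. Apart from the summit in Tcof1, every summit in the Cd74 window scored below the median of all sites.

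The X and Y boxes of the class II promoters are shown for the 6 members on chromosome 17 with a single start in the promoter table, because they are the elements on which the factors that recruit CIITA assemble. Each line gives the 200 bases before the transcription start, 5′ to 3′ on the strand of the gene, from RefSeq (GRCm38.p6, the coordinates of mm10). Capitals mark AGCAAC, a core of the X box, and ATTGG, the Y box that NF-Y binds, where they read on that strand.
H2-Ob: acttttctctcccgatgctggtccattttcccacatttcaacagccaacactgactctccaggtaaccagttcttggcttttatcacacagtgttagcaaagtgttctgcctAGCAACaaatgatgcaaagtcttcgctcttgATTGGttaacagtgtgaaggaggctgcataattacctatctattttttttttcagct
H2-Eb1: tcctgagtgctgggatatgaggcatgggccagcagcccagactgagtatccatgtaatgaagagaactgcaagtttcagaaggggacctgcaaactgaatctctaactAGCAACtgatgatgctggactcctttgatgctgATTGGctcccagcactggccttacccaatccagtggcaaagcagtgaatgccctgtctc
H2-Oa: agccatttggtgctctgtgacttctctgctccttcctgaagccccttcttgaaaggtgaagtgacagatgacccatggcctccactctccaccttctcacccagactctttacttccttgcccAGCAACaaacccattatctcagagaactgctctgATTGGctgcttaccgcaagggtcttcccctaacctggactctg
H2-Aa: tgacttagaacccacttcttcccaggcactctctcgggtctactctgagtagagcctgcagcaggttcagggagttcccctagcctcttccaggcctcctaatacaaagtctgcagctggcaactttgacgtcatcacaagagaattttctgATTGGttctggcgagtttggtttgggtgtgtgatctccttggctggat
H2-DMb1: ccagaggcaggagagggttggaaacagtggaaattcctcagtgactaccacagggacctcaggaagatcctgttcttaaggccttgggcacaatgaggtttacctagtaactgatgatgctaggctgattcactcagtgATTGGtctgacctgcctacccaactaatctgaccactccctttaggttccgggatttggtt
H2-DMb2: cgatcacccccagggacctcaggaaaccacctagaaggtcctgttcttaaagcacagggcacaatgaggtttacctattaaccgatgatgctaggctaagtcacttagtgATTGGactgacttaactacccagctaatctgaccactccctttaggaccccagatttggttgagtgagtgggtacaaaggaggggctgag

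These stretches lie at chr17:34238705-34238904 (H2-Ob), chr17:34305667-34305866 (H2-Eb1), chr17:34092179-34092378 (H2-Oa), chr17:34287824-34288023 (H2-Aa), chr17:34152991-34153190 (H2-DMb1) and chr17:34145049-34145248 (H2-DMb2). H2-Aa is on the minus strand and the other 5 are on the plus strand. The Y box ATTGG stood in all 6, starting between 43 and 90 bases before the start. AGCAAC stood in H2-Ob, H2-Eb1 and H2-Oa, with 25, 27 and 28 bases between it and the Y box. H2-Aa, H2-DMb1 and H2-DMb2 do not hold these exact letters. AGCAAC followed by ATTGG within 30 bases occurred in 150 of the 32851 promoter windows of the table (0.457%, either strand). This pair and its limit of 30 bases were not among the planned motifs, and the limit lies just above the gaps seen here. The share is therefore a description only.

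Promoter windows in the table run from 250 bases before to 50 after a start, and 7 of the 10 genes have 8 of them (H2-DMa has 2). Ciita, Cd74 and H2-Ab1 have none, so the summit 122 bases beyond the lower end of Cd74 could not be counted here. Of the 8 windows, 0 held a listed summit, and since 2.02% of all promoter windows did, a 0 among 8 does not set these windows apart. The listed start of H2-DMb2 lies inside its gene span. The summit 70 bases beyond the lower end of that span therefore falls outside its promoter window. ATTGG on either strand was in 7 of the 8 windows and in 37.4% of all windows. For H2-DMa it was in 1 of the 2 windows, 194 to 198 bases before that start, further out than in the 6 genes shown. AGCAAC was in 3 of the 8 and in 14.8% of all. GAGGAA, a core of PU.1 sites, was in 1 of the 8, that of H2-DMb1, where it reads on the opposite strand 162 to 167 bases before the start. It was in 28.3% of all windows. The composite ETS and IRF element GGAANNGAA (8.24% of all windows) and the IRF element GAAANNGAA (8.56%) were in 0 of the 8. GAGGAA can overlap GGAANNGAA, and GGAANNGAA can overlap GAAANNGAA. The promoter windows of H2-DMb1 and H2-DMb2, neighbouring copies of 1 gene, were alike at 208 bases in a global alignment, more than the other pairs of these 6 genes, which shared 150 to 172. No source used here says how the authors placed reads that fit both copies, so the sites next to these genes are uncertain to that extent.

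The class II cluster on chromosome 17 spans 34092379 to 34316674 from H2-Oa to H2-Eb1. With 50 kb on each side it held 7 summits, 2.16 per 100 kb, against 5.30 at Ciita and 5.51 at Cd74. The density was 0.711 over the windows of all protein-coding genes and 0.425 over the genome as a whole. The value over gene windows counts summits and bases again wherever windows overlap, while the cluster counts each once. Of these 7, 0 lay inside a member gene. Scores ran from 2.61 to 16.98 with a median of 7.60, and 6 of the 7 were below the median of all sites.

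**Figure D2:**
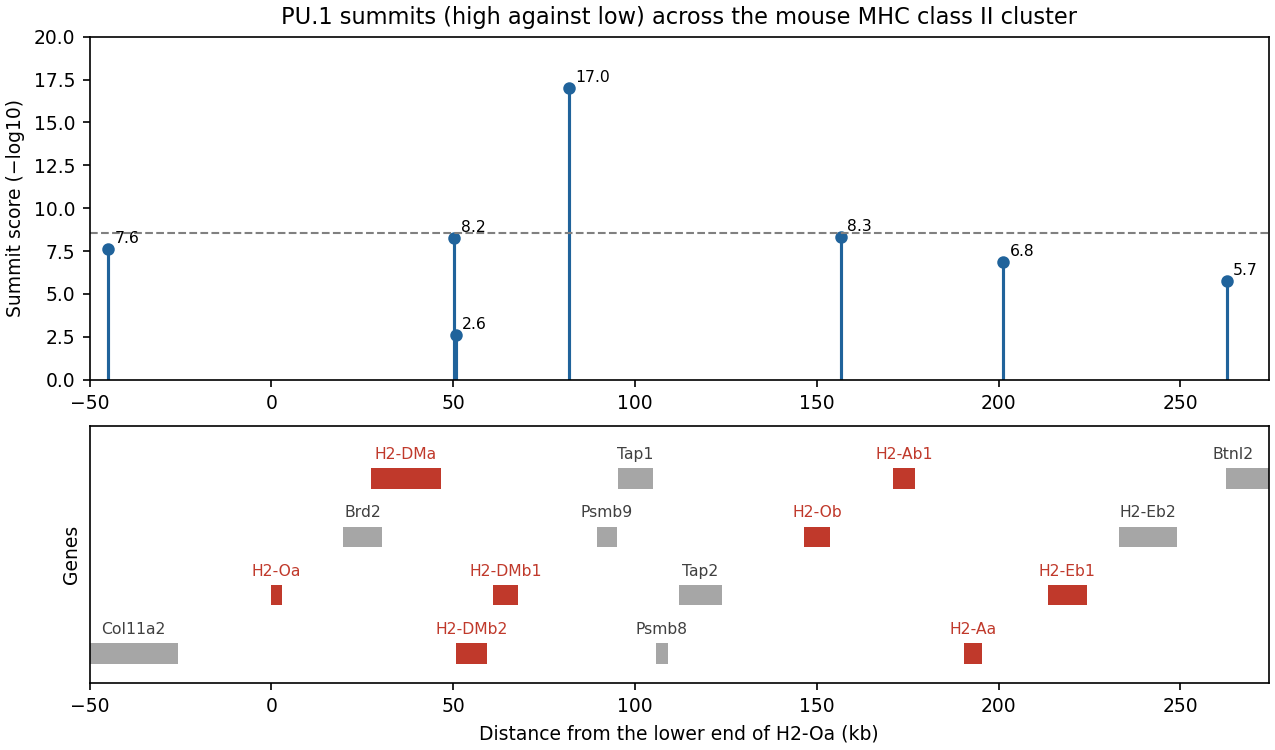
Summits of the chromosome 17 cluster by distance from the lower end of H2-Oa in kb (x axis) and −log10 score (y axis), with protein-coding genes below (members red, others grey) and the median score of all summits as a dashed line. No summit falls on a red gene, and the single summit above the line, 16.98, lies between H2-DMb1 and Psmb9.

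The classical class II genes encode the molecules that reach the cell surface. H2-Ab1 (34263227 to 34269418) and H2-Aa (34282744 to 34287823) encode the beta and alpha chains of I-A, the class II molecule that C57BL/6 mice display. Both had the same 2 summits in their windows. The summit at 34248987, with a score of 8.32, lay 14.2 kb beyond the lower end of H2-Ab1, inside the noncoding gene Gm20506. The summit at 34293713, with a score of 6.84, lay 24.3 kb beyond the upper end of H2-Ab1 and 5.89 kb beyond the upper end of H2-Aa. Since H2-Aa is on the minus strand, this second summit is 5.89 kb upstream of its start.

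H2-Eb1 (34305867 to 34316674) encodes the beta chain of I-E, which C57BL/6 mice do not display because its alpha chain gene H2-Ea, listed here as a transcribed pseudogene, is defective. The summit of score 6.84 lay 12.2 kb upstream of the start of H2-Eb1, so that it stands between H2-Aa and H2-Eb1 and upstream of both. The other summit of H2-Eb1, at 34355175 with a score of 5.73, lay 38.5 kb beyond its upper end inside Btnl2, a butyrophilin-like gene. With 6.84, H2-Eb1 had the lowest top score of the 10 genes.

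H2-DMa (34119693 to 34139101), H2-DMb2 (34143229 to 34151553) and H2-DMb1 (34153191 to 34160229) encode the chains of H2-M, the editor that exchanges the invariant chain fragment for antigen peptides. They shared the same 3 summits. A pair 0.502 kb apart lay between H2-DMa and H2-DMb2, with scores of 8.24 (at 34142657) and 2.61 (at 34143159). This pair lay 572 and 70 bases beyond the lower end of H2-DMb2, and 3.56 and 4.06 kb beyond the upper end of H2-DMa. The promoter table puts the start of H2-DMb2 inside its span, so the pair is 2.59 and 2.09 kb upstream of that start. For H2-DMb1 the pair was 10.5 and 10.03 kb upstream of the start.

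The third summit of the H2-M genes, at 34174216, was the highest of the cluster with a score of 16.98, above 92.2% of all sites. It lay 14.0 kb beyond the upper end of H2-DMb1, 22.7 kb beyond that of H2-DMb2 and 35.1 kb beyond that of H2-DMa. The nearest protein-coding gene was Psmb9, an immunoproteasome subunit gene of the class I pathway, 7.81 kb away.

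H2-Oa (34092379 to 34095234) and H2-Ob (34238905 to 34245908) encode H2-O, an inhibitor of H2-M. H2-Oa had the most distant sites of the 10 genes. Its nearest summit, at 34047531 with a score of 7.60, was 44.8 kb upstream of its start, inside the collagen gene Col11a2. The pair next to H2-DMb2 lay 47.4 and 47.9 kb beyond its other end. H2-Oa thus sits in a stretch of 95.1 kb without a listed summit, the longest in the cluster. H2-Ob had the 8.32 summit 3.08 kb beyond its upper end, 10.1 kb downstream of its start, and the 6.84 summit 47.8 kb beyond that end. A second stretch of 74.8 kb without a summit holds Psmb9, Tap1, Psmb8, Tap2 and H2-Ob itself.

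By the number of summits the 10 genes fall into 4 levels, 8 at Ciita, 6 at Cd74, 3 each at H2-Oa, H2-DMa, H2-DMb1 and H2-DMb2, and 2 each at H2-Ob, H2-Ab1, H2-Aa and H2-Eb1. Of all protein-coding genes, 13.9% had at least 3 summits and 26.9% at least 2. By the highest score the order was Cd74 (25.7), the 3 H2-M genes (16.98), Ciita (14.2), H2-Ob, H2-Ab1 and H2-Aa (8.32), H2-Oa (8.24) and H2-Eb1 (6.84). With no spread between libraries, neighbours in this order cannot be said to differ, and those of equal value share 1 summit. The median of the highest scores was 11.3 over the 10 genes, and 10.4 (quartiles 7.29 and 14.1) over all protein-coding genes with a site. Above that 10.4 were 5 of the 10 genes.

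**Figure D3:**
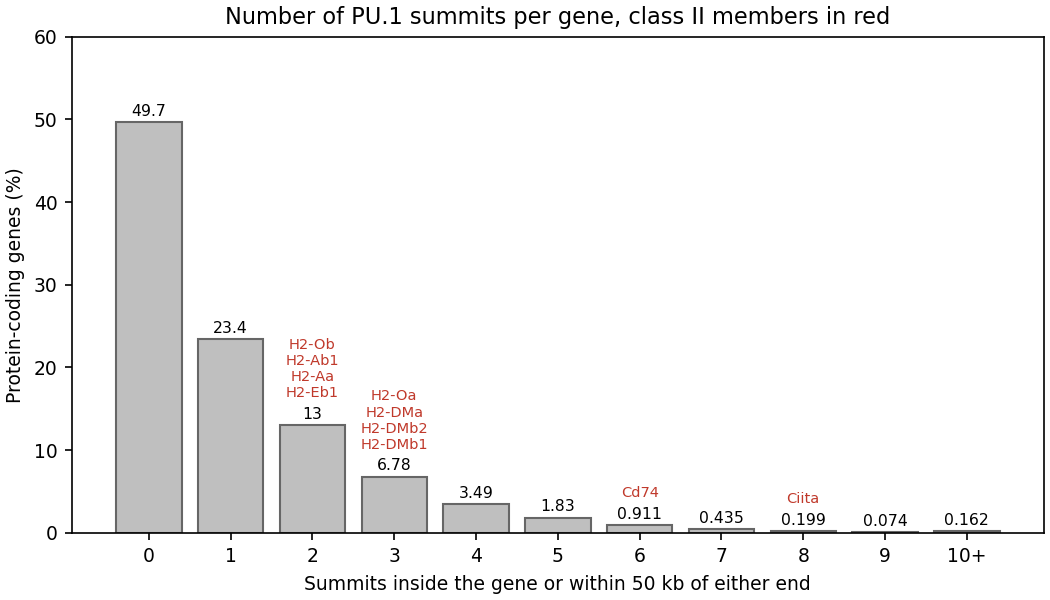
Share of protein-coding genes in percent (y axis, with its value above each bar) by number of summits inside or within 50 kb (x axis), with the 10 members written in red above the bar they belong to. The bar at 0 holds 49.7% of genes and no member, and Ciita stands at 8, a bar of 0.199%.

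Each of the 10 genes had at least 2 summits in its window, as 26.9% of protein-coding genes did. Of the 7 summits on chromosome 17, 5 are shared by several of the 8 genes there. With each summit given only to its nearest protein-coding gene, 5 of the 10 genes kept a site, against 25.6% of protein-coding genes. The scores at the 10 genes were not higher than those of other sites. The median score of the 21 summits was 6.84, against 8.56 for the whole list (quartiles 5.78 and 11.9). A score of at least 10 was reached by 6 of the 21 (28.6%), against 37.4% of all sites. Of these 6, 4 lay at Ciita, where the median was 9.39. The cluster, with a median of 7.60, and Cd74, with 5.55, had 1 each.

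**Figure D4:**
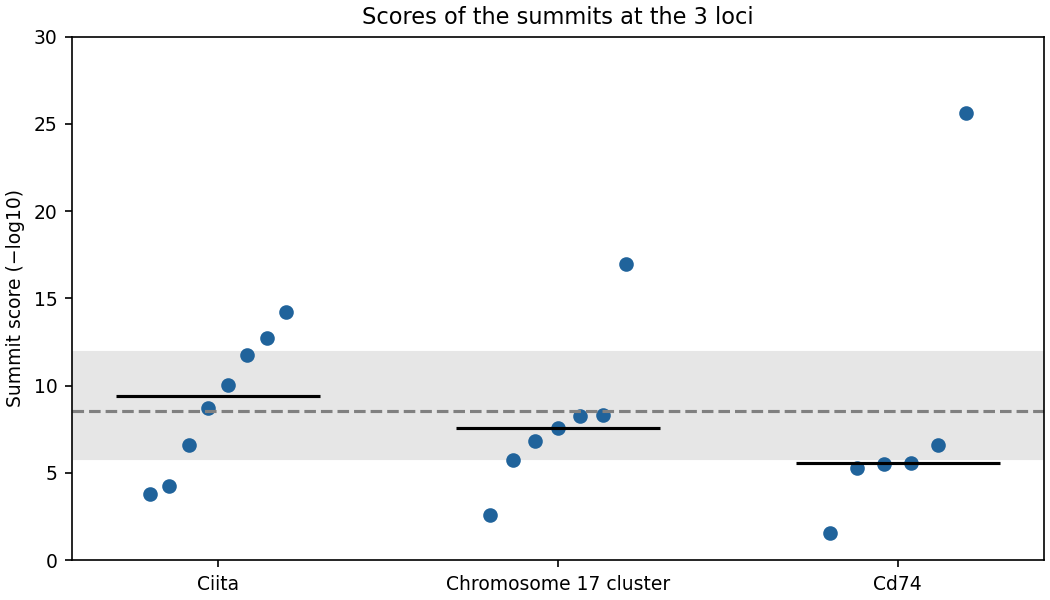
Scores (y axis, −log10) of the 21 summits at Ciita (8), in the chromosome 17 cluster (7) and at Cd74 (6), each point a summit, sideways order by score, with the median of each locus as a black bar. The grey band runs from the lower to the upper quartile of all 11111 scores (5.78 to 11.9) and the dashed line is their median; 5 of 8 summits at Ciita lie above it, against 1 of 7 and 1 of 6.

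Of the genes off chromosome 17 that also had 8 summits (40 genes), Cacna1d (highest score 14.2), Shoc1 (14.5) and Ugcg (14.5) came nearest to Ciita in their highest score. Cacna1d encodes a calcium channel subunit, and Ugcg an enzyme of glycolipid synthesis. Shoc1 and Ugcg are neighbours on chromosome 4 and share that summit. Likeness here is the number of summits and the highest score alone, without regard to gene length. Cacna1d, from 30039941 to 30491156, is much longer than Ciita, which widens its window.

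Other genes of the pathway were described by 4 lists. Of the 10 genes for the factors that assemble on class II promoters and the acetyltransferases they recruit, 9 had a site inside or within 50 kb, with a median highest score of 7.32. Nfya, an NF-Y subunit gene, had 3 summits, the best of which scored 14.5 and lay 39.4 kb beyond its lower end. Kat2b, an acetyltransferase gene, had 1 inside the gene with a score of 13.9. Nfyb, another NF-Y subunit gene, had 0, its nearest site being 51.1 kb away. The RFX genes Rfx5, Rfxap and Rfxank had highest scores of 5.64, 5.23 and 7.32.

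Of 10 genes of the signal that induces Ciita, from the interferon-gamma receptor to its transcription factors, 9 had a site, and the median highest score was 13.0. Irf4, a factor gene of B cells and dendritic cells, had 3 summits, with the highest, 39.03, lying 19.3 kb beyond its upper end. Jak2, a kinase gene of the receptor, had 1 of score 17.7 at 23.5 kb beyond its lower end. Irf8, a factor gene of monocytes and dendritic cells, had 0, its nearest site being 172 kb away.

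Of 11 genes for the loading and turnover of class II molecules, 8 had a site, with a median highest score of 13.9. Ctsd, a cathepsin gene, had 4 summits, and the best, of score 24.04, stood 6.58 kb past its upper end. Marchf1, the gene of a ubiquitin ligase that takes class II molecules off the surface, had 8 summits with a highest score of 18.1 inside the gene. Its span, 65618009 to 66472841, is far longer than that of Ciita, which widens its window. Ctsb, another cathepsin gene, had 0, with the nearest at 55.04 kb.

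Of 13 class I presentation genes, 12 had a site, with a median highest score of 10.7. Tap1, Tap2, Psmb8 and Psmb9 lie between H2-DMb1 and H2-Ob and shared the 16.98 summit of the class II cluster. Psmb10 had 0, its nearest site being 52.7 kb away. The shares of these lists with a site, from 72.7% to 92.3%, stand beside 50.3% of all protein-coding genes. The lists were chosen with earlier results of these data known, and several of their genes share windows.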

How the data were processed

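PU.1 ChIP-seq was made from 5 libraries, 3 PU.1 High and 2 PU.1 Low. The submitters' processing notes name CASAVA 1.8.2, MACS2 and the build mm10. The aligner, the MACS2 version and settings and the handling of technical replicates are not stated there. The deposited list gives each summit a score on a −log10 p or q scale, and its name sets high against low. Depth is unknown.

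Summits were converted to 1-based positions and joined by distance to RefSeq gene spans (GRCm38.p6) with Python 3.11.15 and pandas 2.3.3. The 5 summits off chromosomes 1 to 19 and X were left out of the gene counts. All 10 members matched by symbol. Counts and medians are descriptions beside those of all protein-coding genes, with no test. The join was tested on planted summits. Named genes are the 10 members, cluster neighbours, the 2 highest-scoring genes and, in alphabetical order, the first without a site in each of the 4 pathway lists, and the 3 genes most like Ciita. The RFX genes, Tvp23a, Clec16a, Gm41420 and Tcof1 were named after their values were seen. Members and lists were chosen with earlier results of these data known. Windows of 1, 10 and 100 kb, minimum scores of 5 and 10, and nearest-gene assignment were alternatives. No genome was used here, so the sequence under the summits was not analysed. Promoters came from the RefSeq table.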

Additional observations from a re-analysis of the deposited data

How the results depend on the processing

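The counts depend on the window, and distance does not show which gene a site acts on. With 10 kb on each side, 6 of the 10 genes had a site, with 10 distinct summits, a median highest score of 8.24, a median summit score of 6.72 and a background of 27.8% of protein-coding genes. With 1 kb these values were 3, 7, 8.24, 5.26 and 19.4%. With 100 kb all 10 genes had a site, with 28 summits, and the medians were 16.98 and 7.63 against a background of 64.3%. With scores of at least 5 all 10 genes had a site, with 17 summits of median score 8.24, against 45.2%. With scores of at least 10 it was 5 genes with 6 summits, the medians over these were 16.98 and 13.5, and the background was 26.9%. When each summit went only to its nearest protein-coding gene, 5 genes kept 10 summits, with medians of 8.24 and 6.72, against 25.6%. With 1 kb the 3 of 10 members were near the 19.4% of all protein-coding genes, and under the other settings the share of members was above the background. The members were chosen with earlier results of these data known, and most of them lie in 1 cluster. All of these settings reuse the same list of summits, so they are not independent. With scores of at least 10, H2-DMa, H2-DMb1 and H2-DMb2 count through the same summit. The median summit score was below the 8.56 of the whole list with each window and with nearest-gene assignment. With a minimum of 5 it was 8.24 against 9.59 over all sites that pass, and with a minimum of 10 it was 13.5 against 13.1. No paired analysis was possible because the deposited list gives no separate values for the libraries, and for the same reason no replicate could be left out.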
